A study of Mus musculus with 8 samples.

Results

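Replication-dependent histone genes encode the linker histone H1 and the core histones H2A, H2B, H3 and H4, which package newly made DNA into nucleosomes. They are carried by many near-identical copies that lie together in gene clusters, and their mRNAs are made mostly during S phase, when DNA is copied. Most of these mRNAs have no poly(A) tail and end in a short stem-loop that is bound by the protein SLBP, and some members can also give longer, polyadenylated transcripts in cells that no longer divide. The cochlea holds mostly non-dividing sensory cells and neurons together with glia, bone and blood cells.

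The members were chosen by name, as every entry of the count tables whose gene symbol starts with Hist1h, Hist2h, Hist3h or Hist4h, the older names that give the cluster. This rule takes in 71 of the 47628 entries that name a gene, with 70 distinct symbols, since Hist2h2bb is listed in 2 entries that the files do not tell apart. By histone type there are 6 H1, 20 H2A, 20 H2B, 12 H3 and 13 H4 entries, and by cluster 56 entries belong to cluster 1, 11 to cluster 2, 3 to cluster 3 and 1 to cluster 4. The rule also takes in a few members that are not replication-dependent genes in the strict sense: the testis forms Hist1h1t, Hist1h2aa and Hist1h2ba, and 3 entries that the annotation gives as pseudogenes, Hist1h2aj, Hist1h2al and Hist3h2bb-ps.

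Cochlear RNA seq covered 4 WT mice (numbered 4, 5, 6 and 8) and 4 Opa1+/- littermates (animals 2 and 7 and 2 animals with 3-digit numbers, here called mouse a and mouse b) at 21 days of age, without treatment. Opa1+/- mice carry 1 knock-in allele with a TTAG deletion in Opa1, a gene for a mitochondrial dynamin-related GTPase, in every cell, on a mixed C57BL/6 J and 129 Sv/Pas background. The comparison asks which cochlear transcripts change when 1 Opa1 allele carries the deletion. The libraries are of whole cochlear tissue, and the animals of the 2 groups share no number that would pair them.

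Named genes received 15978051 to 20828030 counts per mouse, of which the histone members took 8220 to 14013 counts, or 0.0443 to 0.0808%. Opa1, which checks the genotype labels, measured 112 to 127 CPM (counts per 1000000 of the TMM-scaled library size) in WT mice and 60.5 to 69.4 CPM in Opa1+/- mice, a log2 fold change of -0.87. All 10 cochlear hair cell markers and all 10 spiral ganglion neuron markers examined passed the count filter. WT mouse 4 stood apart from the other mice in the results below, and values without it are given beside those that it moves most.

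The stem-loop that ends these mRNAs was found in the annotated transcripts (GENCODE vM21, GRCm38) of 44 of the 70 symbols, in 6 forms. These sequences are shown because they are what the members share beyond their names; each is written 5′ to 3′ on the strand of the gene, with the loop in capitals.
Hist1h2ao, chr13:21810898-21810913 (+), the form of 26 members of types H1, H2A, H2B and H3: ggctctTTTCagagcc
Hist1h1t, chr13:23696525-23696540 (+), the form of 6 members of types H1, H2B and H3: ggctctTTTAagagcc
Hist2h2ac, chr3:96220418-96220433 (-), the form of this 1 H2A member: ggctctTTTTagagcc
Hist1h4h, chr13:23531458-23531473 (+), the form of 7 H4 members: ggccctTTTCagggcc
Hist1h4i, chr13:22040966-22040981 (-), the form of 2 H4 members: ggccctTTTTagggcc
Hist1h4b, chr13:23757366-23757381 (+), the form of 2 H4 members: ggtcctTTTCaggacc
All 11 H4 members with a stem-loop had one of the last 3 forms, and none of the other 33 did. In 21 members the stem-loop lay at most 60 bases from the annotated transcript end, and 3 of these also had a polyadenylation signal (AATAAA or ATTAAA) in the transcript. In 22 members it lay over 100 bases from the end, with such a signal in 16 of them. Of the 26 symbols without a stem-loop, 15 are annotated with at most 2 bases after the stop codon and 3 without a coding sequence, so that its absence there says nothing about the mRNA.

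The members also share long stretches of coding sequence, which bears on every count below. At the read length of 80 bases, 62 of the 70 symbols held at least 1 window that another member also holds, and for 31 symbols fewer than 50% of their windows were found in no other annotated transcript. The median share of windows found nowhere else was 28.8% for H2A members, 42.6% for H3, 63.6% for H2B, 76.6% for H4 and 99.3% for H1. One such window shows how alike the H2A genes are. It is given from the single exon of Hist1h2ao, within the coding sequence, and was identical in 14 of the 20 H2A members. The 4 other sequences below are the same stretch of members that differ from it, with the differing bases in capitals.
Hist1h2ao, chr13:21810644-21810723 (+): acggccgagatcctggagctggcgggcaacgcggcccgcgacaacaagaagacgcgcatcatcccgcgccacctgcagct
Hist1h2ak, chr13:21753571-21753650 (-): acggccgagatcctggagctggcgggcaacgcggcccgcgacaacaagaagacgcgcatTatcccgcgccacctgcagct
Hist1h2al, chr13:51202824-51202903 (-): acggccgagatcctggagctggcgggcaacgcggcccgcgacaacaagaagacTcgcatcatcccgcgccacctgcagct
Hist2h2ac, chr3:96220588-96220667 (-): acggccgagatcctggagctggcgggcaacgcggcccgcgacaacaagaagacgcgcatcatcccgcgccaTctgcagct
Hist3h2a, chr11:58954915-58954994 (+): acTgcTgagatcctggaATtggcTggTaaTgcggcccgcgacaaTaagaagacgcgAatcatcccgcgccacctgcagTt
Hist1h2ak, Hist1h2al and Hist2h2ac each differed at 1 base of this window and Hist3h2a at 10.

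Promoters of 62 members were found by symbol in the RefSeq table (GRCm38.p6, 250 bases before to 50 after the start), 61 of them within 500 bases of the annotated start of the gene. The letters CCAAT, on either strand, occurred in 52 of these 61 promoters (85.25%) against 37.41% of all 32851 promoters in the table, and the letters TATAAA, on either strand, in 34 (55.74%) against 13.62%. CCAAT was present in all 5 H1, 18 H2A, 16 H2B and 10 H3 promoters and in 3 of 12 H4 promoters. TATAAA showed no such split, with 3 of 5 H1, 11 of 18 H2A, 8 of 16 H2B, 4 of 10 H3 and 8 of 12 H4 promoters. Neighbouring H2A and H2B genes with facing starts can have overlapping promoters, as Hist1h2ao and Hist1h2bq (chr13:21810150-21810449) do. The same letters then count for both genes, so that the promoters counted here are not all separate stretches. The promoters of Hist1h2ao, an H2A gene with 3 copies of CCAAT and no TATAAA, and of Hist1h4i, an H4 gene with TATAAA and no CCAAT, show the contrast in CCAAT. Most H2A promoters, unlike that of Hist1h2ao, also hold TATAAA. The motifs are in capitals, and ATTGG is CCAAT on the other strand.
Hist1h2ao, chr13:21810117-21810416 (+): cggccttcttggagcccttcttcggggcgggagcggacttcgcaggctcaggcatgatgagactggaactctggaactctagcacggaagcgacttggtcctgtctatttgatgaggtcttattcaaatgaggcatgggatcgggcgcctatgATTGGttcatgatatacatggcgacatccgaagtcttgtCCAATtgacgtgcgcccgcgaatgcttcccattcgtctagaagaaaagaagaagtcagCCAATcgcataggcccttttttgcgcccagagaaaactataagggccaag
Hist1h4i, chr13:22041313-22041612 (-): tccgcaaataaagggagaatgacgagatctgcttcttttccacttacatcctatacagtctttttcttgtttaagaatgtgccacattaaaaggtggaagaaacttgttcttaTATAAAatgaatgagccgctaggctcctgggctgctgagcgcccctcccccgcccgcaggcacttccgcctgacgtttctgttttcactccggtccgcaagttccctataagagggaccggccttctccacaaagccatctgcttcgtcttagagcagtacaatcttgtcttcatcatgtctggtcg

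Levels were compared between genes as CPM per kilobase of exons, averaged over the 8 mice. H2A genes had the highest levels of the members. Hist1h2ap (chr13:21833026-21833507) and Hist1h2ao (chr13:21810465-21810944), a nearly identical pair that shares 373 of the 401 read-length windows of Hist1h2ao, stood at 98.2 and 92.4 CPM per kilobase, and Hist1h2ai and Hist1h2ah followed at 61.7 and 56.7. Levels of neighbours in this order differed by less than the spread between mice. Among the histone types, the H2A level is the one most open to reads with several positions, as the counts of its copies show.

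In the other types 1 or a few members held most of the signal. Hist1h1c (chr13:23738808-23740367), which encodes an H1 variant found widely in differentiated cells, had 33.2 CPM per kilobase, and the next H1 gene, Hist1h1e, had 0.61. Among H2B genes Hist1h2bc (chr13:23684199-23692908) led with 35.5 CPM per kilobase, before Hist3h2ba with 8.46, Hist1h2bj with 6.67 and Hist1h2bl with 5.55. The transcripts of Hist1h1c and Hist1h2bc both carry a polyadenylation signal, and those of Hist1h2ao and Hist1h2ap do not.

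H4 levels were lower, with Hist1h4i at 8.73 CPM per kilobase, Hist1h4h at 5.56, Hist1h4k at 2.85 and Hist1h4b at 2.13. All 3 H3 genes over 1 CPM per kilobase belong to cluster 2: Hist2h3c2 at 3.58, Hist2h3c1 at 3.09 and Hist2h3b at 2.01. These 3 share windows with each other. The share of windows found nowhere else was 37.6% for Hist2h3c2 and 0% for Hist2h3c1 and Hist2h3b, so that their levels may not be separate measurements. The highest H3 gene of cluster 1, Hist1h3i, stood at 0.58, and the 9 H3 genes of that cluster had 1 to 9 counts per mouse.

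**Figure D1:**
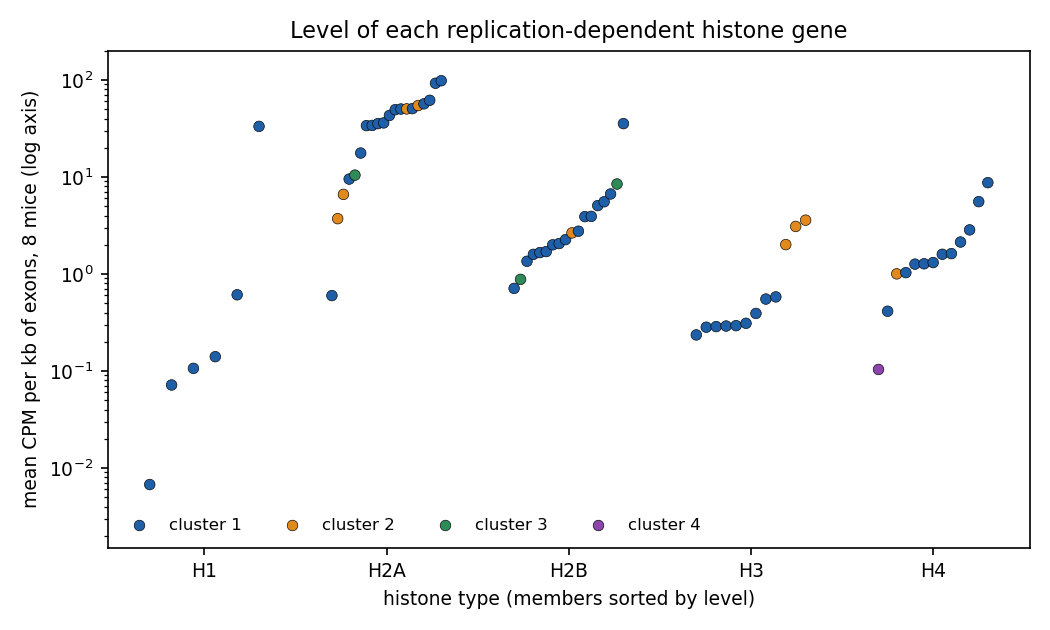
Mean CPM per kilobase of exons over 8 mice (log axis) for each member, sorted within its histone type and coloured by cluster; both Hist2h2bb entries are left out because their lengths cannot be told apart. H2A members reach 98.2, while the H1 and H2B types each have 1 gene, Hist1h1c and Hist1h2bc, well above the others.

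Members at very low counts were most often H3 genes, followed by H4 and H1 genes. None of the 71 entries was at 0 in all mice, and 18 had a mean normalised count of 10 or less and were not tested: 9 H3, 4 H4, 3 H1, 1 H2A and 1 H2B. Hist1h1t, the testis linker histone, had 1 count in 1 mouse in all. Hist1h1b, another linker histone gene, had 0 to 3 counts per mouse. Hist4h4, the only member of cluster 4, had 2, 13, 15 and 0 counts in WT mice 4, 5, 6 and 8 and 2, 2, 2 and 6 in Opa1+/- mice 2, 7, a and b, which is too few for a comparison.

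The counts of 13 H2A genes of cluster 1 moved together, and 6 of them had nearly the same number. These are Hist1h2ao and the 12 H2A genes of the cluster that share at least 1 read-length window with it, and they were set apart after the counts had been seen. Of these, Hist1h2ab, Hist1h2ac, Hist1h2ad, Hist1h2ae, Hist1h2ag and Hist1h2ai had 690 to 731 counts in WT mouse 4, 393 to 414 in WT mouse 5, 256 to 263 in WT mouse 6 and 253 to 261 in WT mouse 8. In Opa1+/- mice 2, 7, a and b the same 6 genes had 363 to 383, 499 to 520, 466 to 488 and 423 to 436 counts. The 6 genes thus lay within 2.73 to 5.94% of each other in every mouse.

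These equal counts came from genes of unequal length. Hist1h2ac has 2482 exonic bases, with 89.5% of its windows found nowhere else, and Hist1h2ai has 393 exonic bases, with 10.8% of its windows found nowhere else. Counts this close at such unequal lengths are not taken here as separate measurements of 6 genes. Hist1h2af and Hist1h2an, which also share windows with Hist1h2ao, had lower counts, 251 and 255 in WT mouse 5, and the part of shared windows in these counts was not tested. The same held for other close copies: Hist1h2bq and Hist1h2br, which share 95.8% of the windows of Hist1h2bq, differed by 0 to 2 counts per mouse, and Hist2h2aa1 and Hist2h2aa2 by 3 to 21 counts at a mean of 523 and 511. How reads with several positions were counted is not given in the sources used here, so that sums over the members can hold 1 read more than once. Gm44350, a short entry on the opposite strand within Hist1h2ac, had 0 to 2 counts per mouse. Whether the counting used strand is not given in the sources used here.

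The same 13 H2A genes differed widely between mice. Hist1h2ao, which encodes a canonical H2A, had 1473, 656, 419 and 421 counts in WT mice 4, 5, 6 and 8 and 645, 879, 940 and 834 in Opa1+/- mice 2, 7, a and b. In CPM these were 83.5, 32.3, 25.0 and 20.7 in WT mice and 38.1, 44.2, 58.3 and 52.8 in Opa1+/- mice. WT mouse 4 was the highest of all mice and the other 3 WT mice were the lowest, with the Opa1+/- mice between them.

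Summed over the 13 genes, WT mice 4, 5, 6 and 8 had 535, 251, 195 and 159 CPM, and Opa1+/- mice 2, 7, a and b had 283, 324, 392 and 356 CPM. The WT mean was 285 ± 171 CPM and the Opa1+/- mean 339 ± 46.5 CPM (SD, n = 4 each), a ratio of 1.19. The groups overlap through WT mouse 4 alone. In such bulk samples a change in the number of cells that make an mRNA and a change in its amount per cell cannot be told apart.

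Each of the 13 genes was highest in WT mouse 4, and no other tested member was, so that 13 of the 53 members tested peaked in that mouse, against 11.8% of all 19366 genes tested. All 13 had an edgeR dispersion, the estimate of the spread between mice of a group, above the trend for genes of their level. With 4 further members this made 17 of 53, against 19.7% of all genes tested. The median ratio of dispersion to trend was 5.21 for the 13 genes, 0.53 for the 40 other tested members and 0.55 for all genes tested. Since the 13 genes share windows and may share reads, these counts may not describe 13 separate genes.

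Of the 7 H2A members outside this group, the 6 tested varied less. Hist2h2aa1, which holds the printed window but shares only 41 windows with Hist1h2ao, had 555, 509, 509 and 467 counts in WT mice 4, 5, 6 and 8 and 456, 561, 601 and 529 in Opa1+/- mice 2, 7, a and b. Hist1h2al, a processed pseudogene far from the cluster on the same chromosome, had 187 to 238 counts. Their highest CPM was 1.62 and 1.51 times the lowest over the 8 mice. It was 1.36 times the lowest for Hist3h2a, 1.65 for Hist2h2aa2, 2.02 for Hist2h2ac and 2.12 for Hist2h2ab, against 2.67 to 4.03 times for the 13 genes. The testis gene Hist1h2aa, which was not tested, reached 3.46 times at 2 to 6 counts per mouse. For Hist2h2ac and Hist2h2ab, as for the 13 genes, WT mice 5, 6 and 8 were the lowest mice, though WT mouse 4 lay within the Opa1+/- range. Without WT mouse 4 their log2 fold changes were 0.67 and 0.66. The rest of the tested H2A members outside the group then ran from -0.02 (Hist3h2a) to 0.29 (Hist2h2aa2).

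The other histone types did not follow the 13 H2A genes. The summed H2B level was 88.2, 85.5, 98.0 and 95.3 CPM in WT mice 4, 5, 6 and 8 and 85.2, 84.2, 106 and 102 CPM in Opa1+/- mice 2, 7, a and b. The summed H1 level, which is almost all Hist1h1c, was 45.5, 56.8, 63.7 and 55.7 CPM in WT mice and 53.7, 52.3, 54.8 and 50.9 CPM in Opa1+/- mice. WT mouse 4 was the lowest mouse for H1 and within the range of the others for H2B.

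Summed H3 levels were 9.41, 10.8, 14.3 and 10.9 CPM in WT mice 4, 5, 6 and 8 and 13.9, 12.7, 13.8 and 13.1 CPM in Opa1+/- mice 2, 7, a and b. Summed H4 levels were 17.5, 15.5, 17.6 and 17.5 CPM in WT mice and 12.1, 18.3, 19.1 and 23.3 CPM in Opa1+/- mice. Both sums overlapped between the genotypes, with WT mouse 4 lowest for H3 and Opa1+/- mouse 2 lowest for H4. By type, the ratio of Opa1+/- over WT means was 0.96 for H1, 1.17 for H2A, 1.03 for H2B, 1.18 for H3 and 1.07 for H4. Without WT mouse 4 these ratios were 0.90, 1.52, 1.02, 1.11 and 1.08 in the same order.

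**Figure D2:**
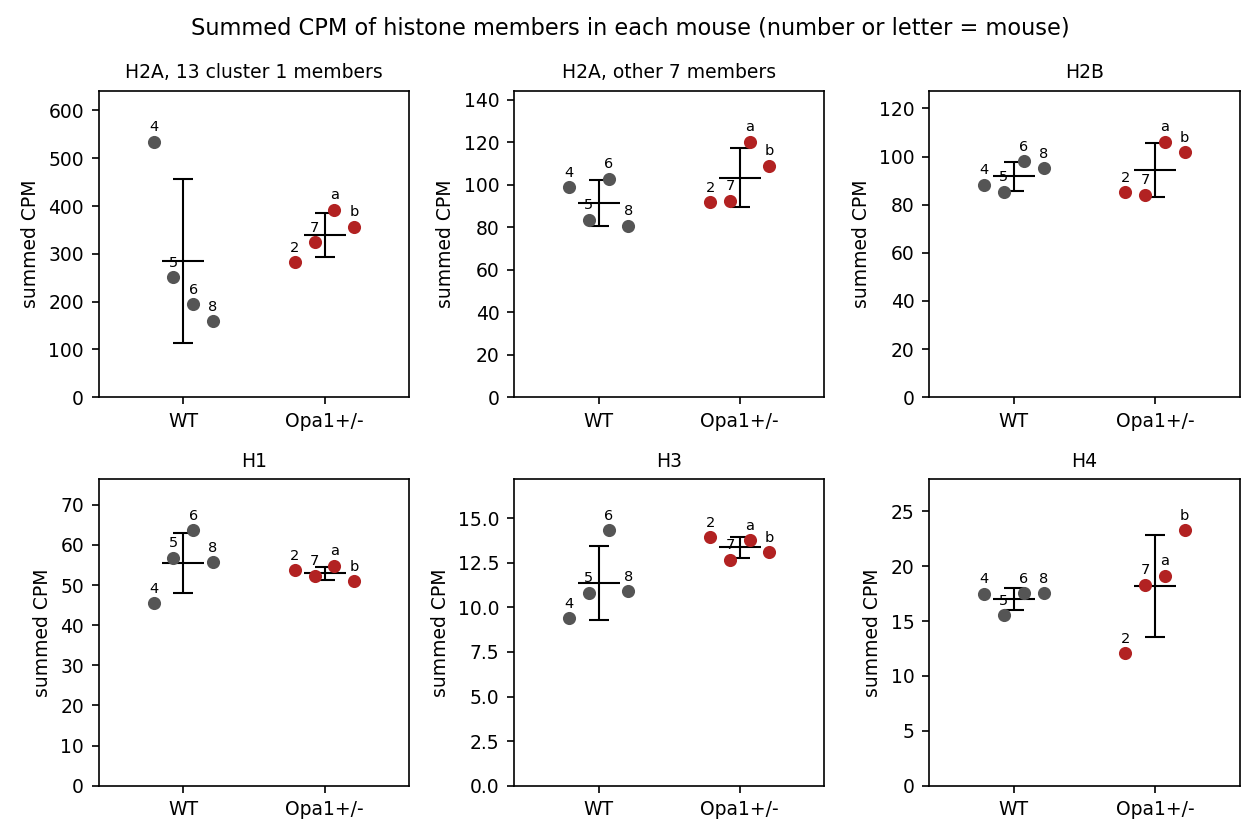
Summed CPM per mouse (points, labelled by mouse) for the 13 cluster 1 H2A genes that share windows with Hist1h2ao, the other 7 H2A members, H2B, H1, H3 and H4, with the mean and SD of each genotype (n = 4). WT mouse 4, at 535 CPM, lies far above the other WT mice in the first panel and not in the others.

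H2A and H2B genes of these clusters often lie head to head, with their starts facing each other across a short stretch, and 14 such pairs of an H2A and an H2B member were found with 172 to 305 bases between their annotated starts. Hist1h2ao and Hist1h2bq have 267 bases between their annotated starts. The RefSeq start of Hist1h2ao lies before its annotated one, at an offset of -98 bases, so that the printed promoter reaches into Hist1h2bq. Hist1h2bq had 67, 89, 81 and 108 counts in WT mice 4, 5, 6 and 8 and 63, 88, 86 and 73 in Opa1+/- mice 2, 7, a and b.

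The ratio of Hist1h2ao over Hist1h2bq counts was 22.0, 7.37, 5.17 and 3.90 in WT mice 4, 5, 6 and 8 and 10.2, 9.99, 10.9 and 11.4 in Opa1+/- mice 2, 7, a and b. WT mouse 4 had the highest ratio and the other 3 WT mice the lowest, while the 4 Opa1+/- mice lay close together. Of the 14 pairs, 11 have an H2A gene among the 13 above. In all 11 the H2A gene was highest in WT mouse 4 and its H2B partner was not, and the highest CPM over the lowest was 2.88 to 4.03 for the H2A gene and 1.40 to 2.15 for the H2B gene. The mouse of the peak is no further result, since it was given above for the 13 genes, and no other tested member peaked there. The 11 H2A genes also share windows, so that these are not 11 separate observations.

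**Figure D3:**
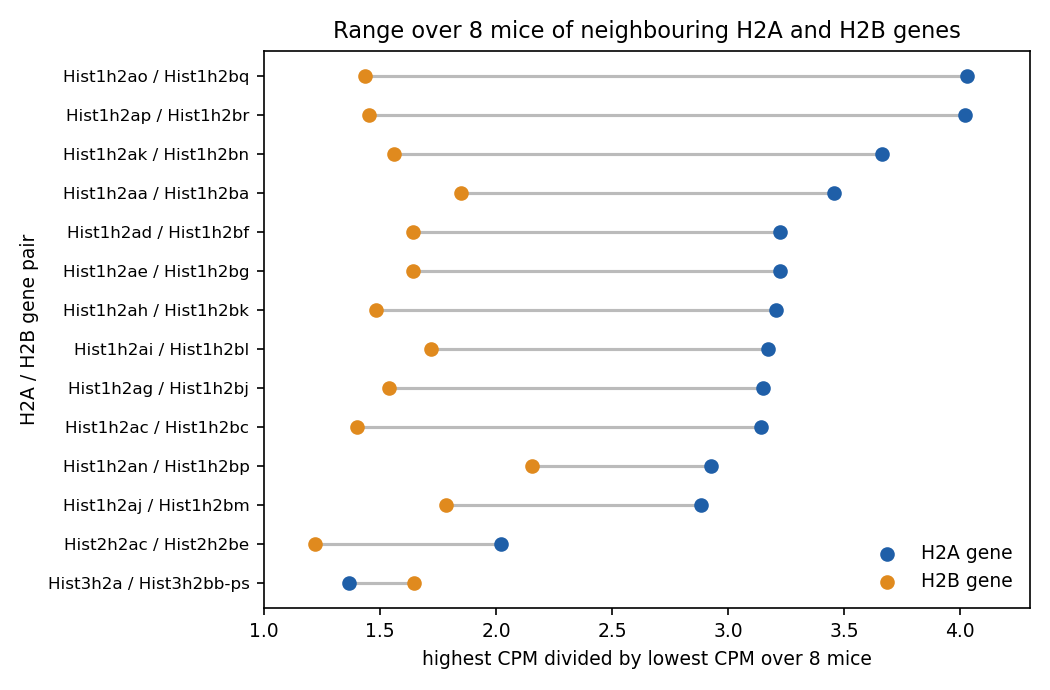
Highest CPM divided by lowest CPM over the 8 mice for the H2A gene (blue) and the H2B gene (orange) of each of the 14 head-to-head pairs. The H2A gene has the wider range in 13 pairs, from 2.02 for Hist2h2ac to 4.03 for Hist1h2ao. Hist1h2aa rests on 2 to 6 counts per mouse. The H2A genes of 11 pairs share windows, so that these pairs are not separate observations.

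Between genotypes, no member passed the adjusted threshold. Under the quasi-likelihood test of edgeR, with p-values adjusted by the Benjamini-Hochberg method, 0 of the 53 members tested had an adjusted p under 0.05, against 0.0258% of all genes tested (5 of 19366), and DESeq2 also called 0. At an unadjusted p under 0.05 there was 1 member, Hist2h2ac, in either tool, or 1.89% of the members against 6.7% of all genes. The median log2 fold change of the tested members was 0.21, beside -0.0031 for all genes tested, and that of the 40 tested members outside the 13 H2A genes was 0.061, with 25 above 0 and 15 below. The median of all tested members rested on single mice, at 0.058 without WT mouse 8, 0.11 without WT mouse 6, 0.27 without WT mouse 4 and -0.0057 without both Opa1+/- mice a and b. Of the 53 members, 38 had a fold change above 0 and 15 below, but the 13 H2A genes that share windows are among the 38.

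Hist2h2ac (chr3:96220361-96220880), a cluster 2 H2A gene whose stem-loop form is shown above, had 63, 52, 46 and 48 counts in WT mice 4, 5, 6 and 8 and 49, 76, 77 and 75 in Opa1+/- mice 2, 7, a and b. The WT mean was 2.81 ± 0.531 CPM and the Opa1+/- mean 4.06 ± 0.894 CPM (SD, n = 4), and the groups overlap, since Opa1+/- mouse 2 had 2.89 CPM and WT mouse 4 had 3.57. The log2 fold change was 0.53 ± 0.21 (SE), with an adjusted p of 0.726 in edgeR.

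Hist3h2ba (chr11:58948920-58949533), an H2B gene of cluster 3, was the 1 tested member whose genotypes did not overlap. It had 88, 84, 83 and 100 counts in WT mice 4, 5, 6 and 8 and 85, 108, 99 and 94 in Opa1+/- mice 2, 7, a and b, so that WT mice spanned 4.13 to 4.99 CPM and Opa1+/- mice 5.02 to 6.14 CPM. The log2 fold change of this gene was 0.25 ± 0.12 (SE), with an adjusted p of 0.756 in edgeR. One member in 53, or 1.89%, is close to the 1.98% of all genes tested whose Opa1+/- values lay above every WT value, and 0 members lay below every WT value, against 2.31% of all genes.

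The 3 further members with the lowest p were the second Hist2h2bb entry, Hist2h3c2 and Hist2h2ab. The second Hist2h2bb entry, which encodes H2B, had 19, 15, 24 and 18 counts in WT mice 4, 5, 6 and 8 and 13, 14, 10 and 13 in Opa1+/- mice 2, 7, a and b, a log2 fold change of -0.49 ± 0.26 (SE), or -0.30 without WT mouse 6. The first entry of the same symbol had 44 to 75 counts and a log2 fold change of -0.12 ± 0.20. Hist2h3c2, an H3 gene, had a log2 fold change of 0.30 ± 0.16 and Hist2h2ab, an H2A gene, one of 0.44 ± 0.25 (SE). None of these had an adjusted p under 0.756 in edgeR.

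Hist1h1c, an H1 gene, and Hist1h2bc, an H2B gene, had narrower intervals than Hist1h2ao. Hist1h1c had 762, 1114, 1027 and 1084 counts in WT mice 4, 5, 6 and 8 and 872, 994, 839 and 765 in Opa1+/- mice 2, 7, a and b. Hist1h2bc had 707, 696, 716 and 833 counts in WT mice and 649, 731, 757 and 758 in Opa1+/- mice. The genotypes overlapped for both, and the fold change plus and minus 2 SE ran from -0.27 to 0.12 for Hist1h1c and from -0.11 to 0.31 for Hist1h2bc on the log2 scale.

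Hist1h4i, the H4 gene whose promoter is shown above, had a log2 fold change of -0.0047 ± 0.15 (SE), and Hist3h2a, an H2A gene of cluster 3 that overlaps Trim17 on the same strand, one of 0.03 ± 0.11. For Hist1h2ao the same interval of 2 SE ran from -0.52 to 1.05, which takes in both no change and a log2 difference of 1. By type, the tested members with a fold change above 0 were 1 of 3 for H1, 19 of 19 for H2A, 8 of 19 for H2B, 3 of 3 for H3 and 7 of 9 for H4, with median log2 fold changes of -0.02, 0.24, -0.02, 0.30 and 0.22. Without WT mouse 4 these medians were -0.10, 0.69, -0.08, 0.23 and 0.31, and 18 of the 19 H2A members lay above 0. With all mice the median of all genes tested was -0.0031. Genes that share windows count singly here, among them 13 of the 19 H2A members and the 3 H3 members. The counts by type are thus not counts of separate observations.

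The size of the H2A difference depended on single mice, most of all on WT mouse 4. Without it, the 13 H2A genes summed to 159 to 251 CPM in the 3 other WT mice and 283 to 392 CPM in the Opa1+/- mice, and the ratio of the means rose from 1.19 to 1.68. The median log2 fold change of the 13 genes was then 0.71, against 0.24 with all mice and -0.0062 for all genes tested in that fit. It moved the other way without WT mouse 8, to 0.054, without WT mouse 6, to 0.11, and without both Opa1+/- mice a and b, also to 0.11.

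In the fit without WT mouse 4, Hist1h2ao had a log2 fold change of 0.89 ± 0.18 (SE) and an adjusted p of 0.385 in edgeR. All 13 genes had an unadjusted p under 0.05, as had Hist2h2ac, Hist2h2ab and Hist1h1c, of which Hist1h1c fell by 0.16 on the log2 scale. This made 16 of 53 members, beside 10.4% of all genes tested without that mouse, and 0 members passed the adjusted threshold, beside 0.0517% of all genes. Since WT mouse 4 was the highest mouse in all 13 genes and these share windows, the count without it is a description and supports no difference between the genotypes. Left out in turn, the other mice gave a ratio of the 13-gene sum of 1.04 (without WT mouse 8) to 1.25 (without Opa1+/- mouse 2).

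**Figure D4:**
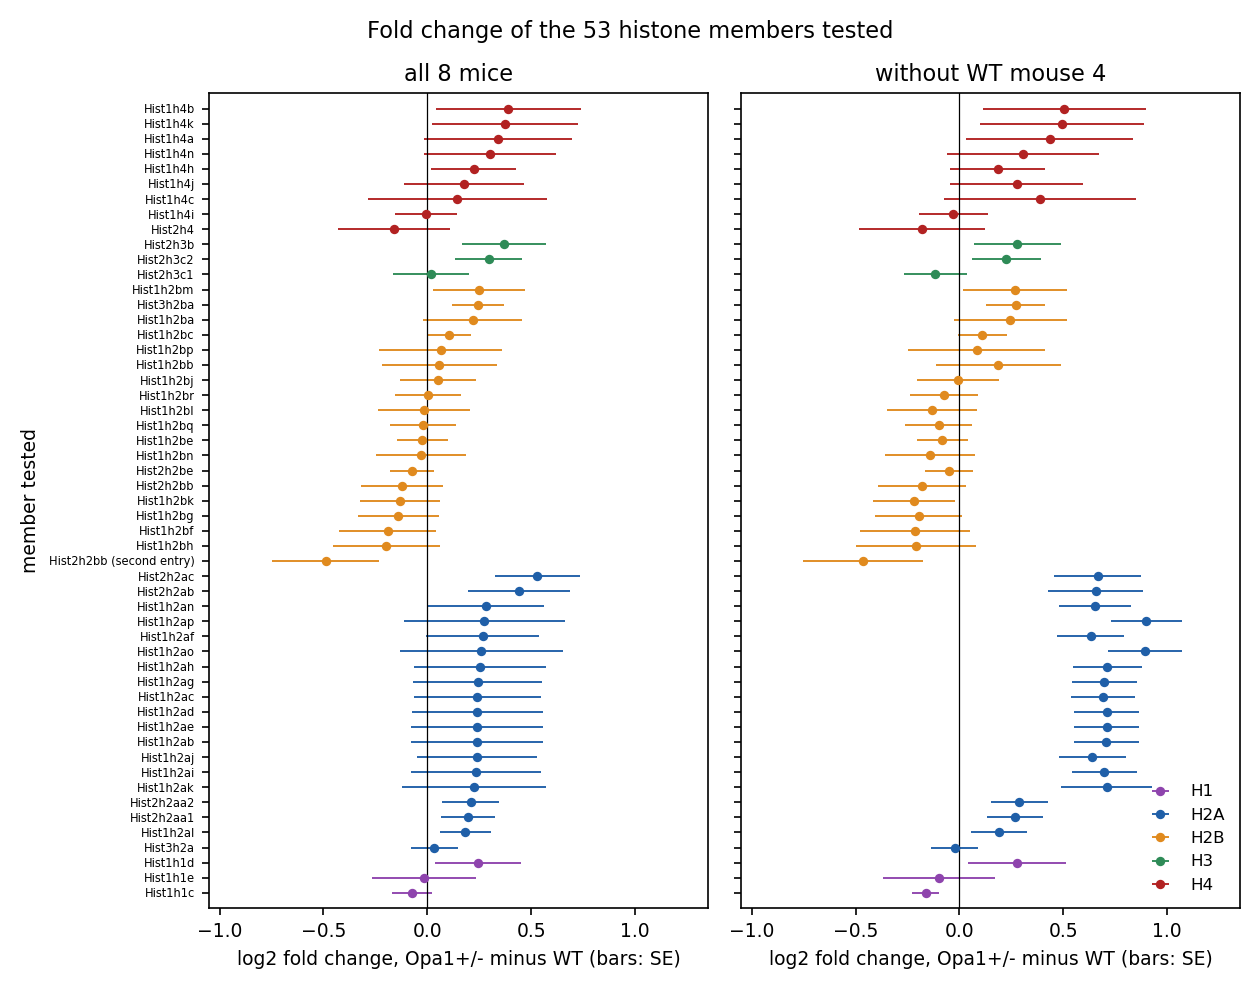
Log2 fold change of Opa1+/- minus WT, with its SE as a bar, for the 53 members tested by edgeR, with all 8 mice (left) and without WT mouse 4 (right), coloured by histone type. The 13 cluster 1 H2A genes lie between 0.23 and 0.28 in the left panel and between 0.63 and 0.90 in the right panel, and H2B members stay on both sides of 0 in both.

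At the low end of the counts, the H3 genes of cluster 1 differed among themselves. The 9 genes were too low to be tested and together had 36, 29, 32 and 24 counts in WT mice 4, 5, 6 and 8 and 54, 51, 35 and 37 in Opa1+/- mice 2, 7, a and b. In counts, WT mouse 4 and Opa1+/- mouse a overlap, while the sums in CPM were 1.18 to 2.04 in WT mice and 2.17 to 3.19 in Opa1+/- mice, with these same mice nearest to each other. For 5 of the 9 (Hist1h3a, Hist1h3b, Hist1h3c, Hist1h3h and Hist1h3i) all 4 Opa1+/- mice lay above all WT mice in CPM, and with Hist3h2ba this made 6 of 71 members, against 1.57% of all 34939 entries with at least 1 count. In counts, Opa1+/- mouse b only equalled the highest WT mouse for Hist1h3a (2 counts), Hist1h3b (4) and Hist1h3i (3). The separation of these in CPM thus rests on the scaling by library size. The other 4 of the 9 genes overlapped in CPM, and of these Hist1h3d, with a WT mean of 0.382 CPM against 0.333 CPM, and Hist1h3e, with 0.242 against 0.230 CPM, had the lower mean in Opa1+/- mice.

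Hist1h3c, which encodes the replication-coupled H3, had 2, 1, 2 and 2 counts in WT mice 4, 5, 6 and 8 and 6, 4, 6 and 4 in Opa1+/- mice 2, 7, a and b. No member lay below every WT mouse, against 1.48% of all such entries. These 5 genes also share windows with each other, as Hist1h3h and Hist1h3i do over 68.4% of the windows of Hist1h3h, and differed there by 0 to 1 counts per mouse, so the 5 are not separate observations. At 1 to 8 counts per gene and mouse, their lowest adjusted p was 0.753 in the edgeR fit with no filter on low counts.

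Genes of the cell cycle moved with the H2A genes between mice. The list of 22 mitosis genes, led by Mki67 and Top2a, markers of dividing cells, summed to 434, 278, 156 and 150 CPM in WT mice 4, 5, 6 and 8 and 289, 287, 346 and 302 CPM in Opa1+/- mice 2, 7, a and b. This is the same order of mice as for the 13 H2A genes except for Opa1+/- mice 2 and 7, which change places. All 22 genes were highest in WT mouse 4. None was called, and their median log2 fold change was 0.19 with all mice and 0.57 without WT mouse 4.

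The 31 genes of S phase and DNA replication, led by Pcna, the sliding clamp of DNA polymerase, and Rrm1, a subunit of ribonucleotide reductase, summed to 455, 360, 277 and 282 CPM in WT mice 4, 5, 6 and 8 and 353, 379, 398 and 378 CPM in Opa1+/- mice 2, 7, a and b. WT mouse 4 was the highest again, in 23 of the 31 genes. None was called in either direction, and the median log2 fold change was 0.12, or 0.29 without WT mouse 4. The ratio of the summed CPM, Opa1+/- over WT, was 1.10 with all mice and 1.23 without WT mouse 4.

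Markers of blood and marrow cells moved in part with them. The 16 erythroid markers found in the tables, led by the globin genes Hba-a1 and Hba-a2, summed to 8093 to 21743 CPM in WT mice and 15527 to 25266 CPM in Opa1+/- mice, with WT mice 5, 6 and 8 lowest and Opa1+/- mouse b highest. None of the 16 was called, and their median log2 fold change was 0.49 with all mice and 0.90 without WT mouse 4. The 18 neutrophil and marrow markers, led by S100a9 and Ngp, summed to 497 to 1577 CPM in WT mice, with WT mouse 4 the highest in 16 of the 18, and to 509 to 1278 CPM in Opa1+/- mice. The ratio of the means was 1.05 with all mice and 1.57 without WT mouse 4.

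The 13 B cell markers, led by Cd79a and Blnk, summed to 19.5 to 43.1 CPM in WT mice, again with WT mouse 4 highest, and 19.1 to 34.0 CPM in Opa1+/- mice, a ratio of the means of 0.93 with all mice and 1.17 without WT mouse 4. No marker of the erythroid, neutrophil or B cell lists that is in the tables was at 0 in all mice. The stria vascularis markers, led by Slc12a2 and Atp1b2, went the other way, at 1026 CPM in WT mouse 4 and 1325 to 2004 CPM in the other 7 mice. Hair cell markers, led by Otof and Cib2, were also lowest in WT mouse 4, at 132 CPM against 157 to 197 CPM. For the neuron and bone lists WT mouse 4 lay within the range of the mice. It had 6431 CPM of spiral ganglion neuron markers, led by Nefh and Nefl (5506 to 6566 CPM over all mice), and 1314 CPM of bone markers, led by Col1a1 and Bglap (988 to 1484 CPM). The part of dividing or blood cells in the H2A counts was not tested.

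**Figure D5:**
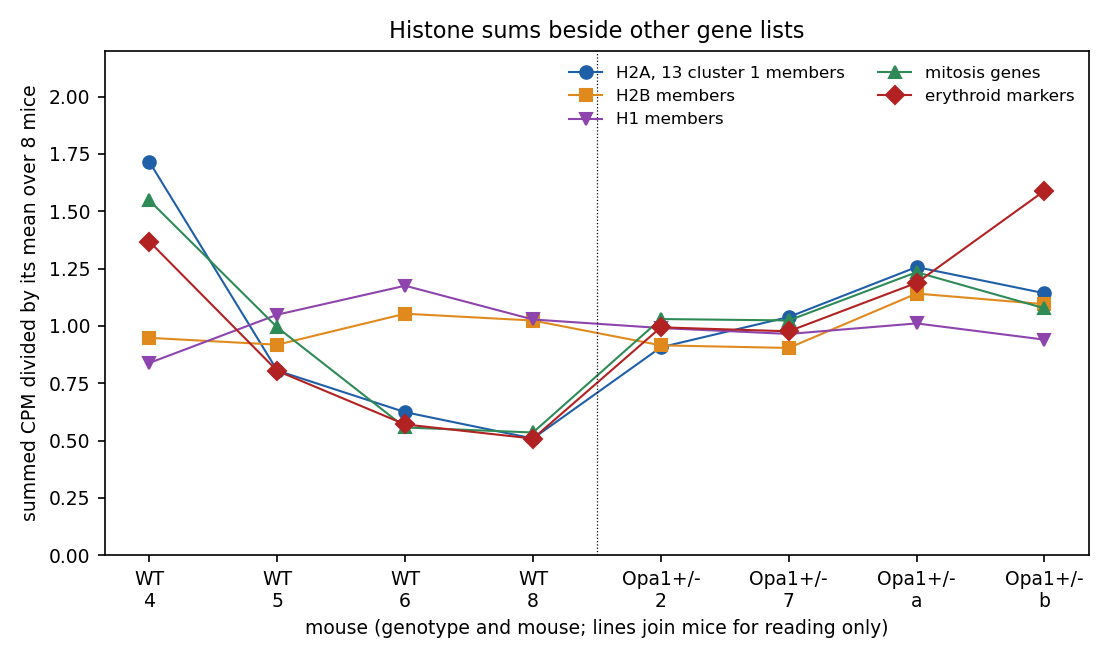
Summed CPM of the 13 cluster 1 H2A genes, the H2B members, the H1 members, the mitosis genes and the erythroid markers in each mouse, each divided by its own mean over the 8 mice. The H2A and mitosis sums are highest in WT mouse 4 (535 and 434 CPM) and lowest in WT mice 6 and 8, and the H2B and H1 sums are not.

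The genes that serve histone mRNA and histone proteins varied little between mice. Of the 26 listed genes of histone mRNA end processing, translation and decay, 25 were in the tables and 24 were tested, with 0 called and a median log2 fold change of -0.03. They summed to 799 to 847 CPM in WT mice and 791 to 853 CPM in Opa1+/- mice, with Srrt and Fip1l1 the highest. Slbp, which binds the stem-loop and was chosen for that role, had a WT mean of 33.6 ± 2.64 CPM and an Opa1+/- mean of 32.0 ± 0.849 CPM (SD, n = 4).

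The 22 histone chaperones and import factors, led by Npm1 and Nap1l1, summed to 1314 to 1375 CPM in WT mice and 1317 to 1371 CPM in Opa1+/- mice, with 0 called and a median log2 fold change of 0.03. The replication-independent histones, which are made through the whole cell cycle and are led by the H3 genes H3f3a and H3f3b, summed to 754 to 819 CPM in WT mice and 756 to 829 CPM in Opa1+/- mice. Of their 15 genes 12 were tested and 0 were called, with a median log2 fold change of 0.05. The ranges of all 3 lists overlapped between the genotypes.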

How the data were processed

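The authors extracted RNA from isolated cochleae, prepared CORALL libraries, sequenced paired reads of 80 nucleotides, trimmed adapters, used molecular identifiers against amplification bias and mapped the reads to GRCm38 with STAR, in the CORALL Data Analysis Pipeline. The authors deposited 1 table of raw counts per mouse, whole numbers per gene symbol. The counting program and its settings, the annotation, the handling of reads with several positions and any selection of RNA are not given in the sources used here. Groups follow the genotype label. Of the rows, 15 without a symbol (0.112 to 0.124% of counts) were left out.

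The test was edgeR 4.0.16's quasi-likelihood test with TMM scaling on all genes with a mean DESeq2-normalised count over 10, Benjamini-Hochberg adjustment and a threshold of 0.05, after checks on simulated data. DESeq2 1.42.0 was an alternative. R 4.3.3, Python 3.11.15, pandas 2.3.3 and matplotlib 3.10.9 were used. Standard errors are from the fit, and p-values set the genotype difference against the spread between mice of a genotype. There were 4 mice per genotype unless a mouse was left out, and the fit estimates the spread in part from all genes. Exons, stem-loops and shared windows of 80 bases were read from GENCODE vM21 transcripts of GRCm38 on both strands, and promoters from RefSeq.

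Members and lists were chosen with earlier results of these data known. Named members are those past the threshold, the 5 with the lowest p, the 4 highest per kilobase in each type and the tested members of clusters 3 and 4. The 13 H2A genes, the head-to-head partners, Hist2h2aa1 and Hist2h2aa2, Hist1h2al, Hist4h4, Hist1h1t, Gm44350, Slbp and the H3 genes of cluster 1 were named after their values were seen. Of the other lists, the 2 highest genes are named. Alternatives were other scalings, DESeq2, robust estimation, 2 other filters, each mouse left out, both Opa1+/- mice with 3-digit numbers left out, members with a unique window, the highest member left out, a pseudocount of 0.5 and, chosen after seeing the data, each histone type counted once. The spiral ganglion and bone lists had 0 genes called, and 1 further marker list is not reported here. No protein sequence was used.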

Additional observations from a re-analysis of the deposited data

Results flagged for a closer look

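In groups of 4 mice, a value was singled out where its gap to the nearest of the other mice, divided by the range of the group, exceeded Dixon's 95% critical value, in either genotype, over 74 groups of member sums and named members. Chance singles out about 1 group in 20, and 3 were found. The summed H4 level of WT mouse 5 was 15.5 CPM, below the 17.5 to 17.6 CPM of the other WT mice. The CPM of Hist3h2ba in WT mouse 5 was 4.13, below the 4.92 to 4.99 of the other WT mice, and the log2 fold change of this gene ran from 0.18 to 0.30 over each mouse left out. The cluster 4 sum, which is Hist4h4 alone, was 0.380 CPM in Opa1+/- mouse b against 0.101 to 0.124 in the other Opa1+/- mice, a difference of 6 against 2 counts. The H2A value of WT mouse 4 was not among these, since its gap to the nearest WT mouse was a smaller part of the WT range.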

How the results depend on the processing

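No member was called higher or lower under any of the 16 alternatives fitted, and none of the 352 values of the 22 named members tested passed the adjusted threshold (lowest adjusted p 0.385, without WT mouse 4; the other alternatives had no lower value). The number of members with an unadjusted p under 0.05 was 1 with all mice and 0 to 16 with 1 mouse left out: 16 without WT mouse 4 (13 of them the H2A genes that share windows), 3 without Opa1+/- mouse 2 and 0 without WT mouse 8, Opa1+/- mouse a or Opa1+/- mouse b. It was 3 with no filter, where Hist1h3c and Hist1h3h join Hist2h2ac, and 0 without both Opa1+/- mice with 3-digit numbers. The median log2 fold change of the tested members, 0.21, ran from 0.058 (without WT mouse 8) to 0.30 (without Opa1+/- mouse 2), with 0.11 without WT mouse 6, and was -0.0057 without both Opa1+/- mice with 3-digit numbers; the cause was not tested. The ratio of the summed CPM of all members, 1.13, ran from 1.04 (without WT mouse 8) to 1.32 (without WT mouse 4), was 1.13 over members with a unique window, 1.14 without the highest member and 1.05 with each histone type counted once by its highest member. Another scaling moved it by at most 0.02. No paired analysis was possible because the genotypes share no animal number. Depth limits the H3 genes of cluster 1 and most H1 genes, and windows shared between copies limit the values of the 13 H2A genes.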
